A study of Mus musculus with 10 samples.

Results

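Basophils and mast cells are rare cells in the spleen, and their transcripts were followed here in splenic macrophage preparations through 8 genes: Mcpt8, Prss34, Fcer1a, Ms4a2, Cpa3, Gata2, Hdc and Cd200r3. The genes were chosen by name as markers of these cells, with earlier results of these data known, so that counts over them beside all genes are a description only. The rows of the count table were found through their Ensembl identifiers, 8 of the 55414 identifiers in the table. RNA sequencing of polyadenylated RNA had been carried out on 10 libraries of cells taken from mouse spleen with magnetic beads against F4/80, a surface protein of macrophages. Of these, 5 were wild type, on C57BL/6N (WT), and 5 lacked Fpr2 (Fpr2KO), the gene for formyl peptide receptor 2. No treatment is given for either group, and the sources used here give no age, sex or knockout strain background, nor whether each library is a separate animal. The p-values therefore measure only the spread between these libraries, which may be technical.

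Basophils circulate in blood, whereas mast cells mature in tissues, and both carry the high-affinity receptor for immunoglobulin E, FceRI. When antigen cross-links immunoglobulin E on this receptor, the cells release histamine and proteases from granules and secrete cytokines such as interleukin 4. GATA2 is a transcription factor needed for the formation of both cell types, and it binds DNA at GATA motifs.

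Library totals ranged from 15865820 to 19060188 counts, and 14669 genes had enough reads for the test. Fpr2 reads matched the genotype label in all 10 libraries, with 1983 reads in WT and 0 in Fpr2KO. The labelled cell type was present: all 14 markers of red pulp macrophages were tested, and their summed level was 8988 to 11891 CPM (counts-per-million values on scaled library sizes) in WT and 9190 to 11570 CPM in Fpr2KO. Other cells were present too, as B cell markers summed to between 2201 and 3836 CPM. In bulk RNA of this kind, fewer cells of a type and less RNA per cell cannot be told apart.

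The promoters of the 8 genes are shown for the GATA motif, because a factor that binds it, Gata2, is among the genes measured. RefSeq promoter windows of 300 bases (250 before and 50 after the start site, build GRCm38.p6) were matched for 8 of 8 genes, with a pair of start sites for Gata2. They were searched on both strands for AGATAA or AGATAG and for TGATAA or TGATAG, which share the core GATA. At least 1 match was found in 6 of the 9 windows, compared with 29.76% of 32851 mouse promoter windows of the same length. The windows of Ms4a2 and Cd200r3 held 3 matches each, and 1.76% of all windows held 3 or more. A match is a description of the letters and not a measured binding site, and no match says only that these letters are not in the window. The 5 windows below hold 1 match (Fcer1a, Cpa3, Hdc) or 3 (Ms4a2, Cd200r3), and capitals mark the matched bases on the strand of the gene, where TTATCT is AGATAA and TTATCA is TGATAA read from the other strand.
Fcer1a (chr1:173227180-173227479, minus strand): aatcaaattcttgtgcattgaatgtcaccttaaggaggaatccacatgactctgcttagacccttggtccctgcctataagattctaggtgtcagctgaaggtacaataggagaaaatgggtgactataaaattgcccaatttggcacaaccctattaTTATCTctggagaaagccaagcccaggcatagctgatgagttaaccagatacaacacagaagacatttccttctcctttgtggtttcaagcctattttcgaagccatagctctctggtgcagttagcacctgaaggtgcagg
Ms4a2 (chr19:11623670-11623969, minus strand): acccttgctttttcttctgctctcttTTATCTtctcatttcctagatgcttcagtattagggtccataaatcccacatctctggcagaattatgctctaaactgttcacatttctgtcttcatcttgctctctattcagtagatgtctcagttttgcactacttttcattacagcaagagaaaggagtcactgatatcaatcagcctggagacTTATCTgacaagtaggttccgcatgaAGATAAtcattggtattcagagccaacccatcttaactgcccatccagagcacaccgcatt
Cd200r3 (chr16:44943428-44943727, plus strand): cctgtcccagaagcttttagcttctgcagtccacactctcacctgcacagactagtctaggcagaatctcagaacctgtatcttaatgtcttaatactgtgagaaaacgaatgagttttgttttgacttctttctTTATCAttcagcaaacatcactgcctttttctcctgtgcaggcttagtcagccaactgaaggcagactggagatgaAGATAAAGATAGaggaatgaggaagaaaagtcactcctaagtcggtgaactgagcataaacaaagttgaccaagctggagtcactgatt
Cpa3 (chr3:20242132-20242431, minus strand): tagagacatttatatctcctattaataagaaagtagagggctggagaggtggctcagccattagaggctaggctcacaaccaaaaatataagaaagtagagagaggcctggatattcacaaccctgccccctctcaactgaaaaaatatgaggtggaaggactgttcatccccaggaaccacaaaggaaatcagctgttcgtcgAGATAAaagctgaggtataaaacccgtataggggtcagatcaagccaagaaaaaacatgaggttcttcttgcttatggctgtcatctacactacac
Hdc (chr2:126618629-126618928, minus strand): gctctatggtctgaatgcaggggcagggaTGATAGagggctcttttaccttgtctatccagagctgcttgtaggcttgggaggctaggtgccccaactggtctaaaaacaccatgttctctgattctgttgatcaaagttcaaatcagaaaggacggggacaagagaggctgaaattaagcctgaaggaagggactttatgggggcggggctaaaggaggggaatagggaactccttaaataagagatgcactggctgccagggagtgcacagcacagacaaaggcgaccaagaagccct
Counting upstream of the start site, the match of Cpa3 began at position -46 and that of Prss34, not printed, at -31. In Ms4a2 they began at -224, -37 and -11, and in Cd200r3 at -115, -39 and -33, the last pair being adjacent. The match of Fcer1a began at -92 and that of Hdc at -221. No match was found in the windows of Mcpt8 and Gata2.

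All 8 genes had lower estimates in Fpr2KO, and none of them was called by edgeR at an adjusted p (false discovery rate, FDR) of 0.05. Hdc, the gene for histidine decarboxylase, which makes histamine, had the most reads and was at 58.4 ± 16.6 CPM in WT, against 30.9 ± 10.8 CPM in Fpr2KO (SD, n = 5). It also had the smallest p-value of the 8, with a log2 fold change of -0.92 (SE 0.27; edgeR FDR = 0.329), and DESeq2 called it (FDR = 0.0145). The other 7 genes lay between 0.557 and 9.01 CPM in mean. Of the 8 genes, 2 had an unadjusted p under 0.05 by edgeR, Hdc and Fcer1a, against 4.92% of all tested genes in the lower direction and 9.8% in either. At the FDR of 0.05, 0 of the 8 were called, against 0.0614% of all genes in that direction and 0.0682% in either. DESeq2 called 1 of the 8, against 0.567% lower and 1.09% in either direction of the genes to which it gave an adjusted p. The share of all genes called was 0.217% with no filter on low counts and 0.436% with the replicate number as a block. The block fit called Hdc (edgeR FDR = 0.00149), but the labels do not say whether the replicate numbers pair the libraries. In no gene of the 8 were the groups free of overlap, a property of 0.566% of all genes in the lower direction.

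**Figure D1:**
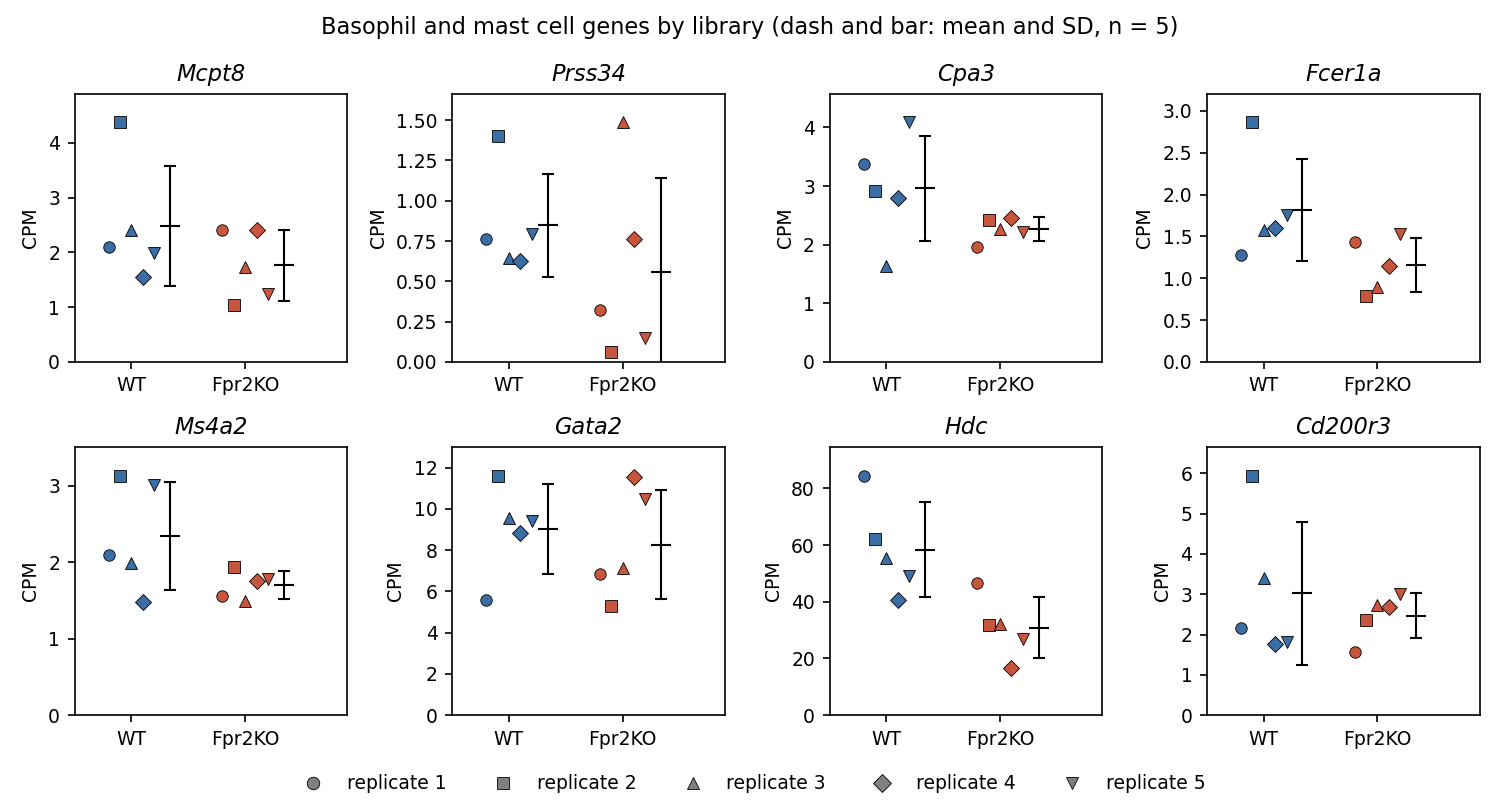
Level of each gene in CPM (linear axes from 0) in 5 WT and 5 Fpr2KO libraries, with 1 symbol shape per replicate number and the mean and SD beside each group (an SD bar that would fall below 0 is clipped). WT replicate 2 is the highest WT library for Mcpt8, Prss34, Fcer1a, Ms4a2, Gata2 and Cd200r3, whereas WT replicate 1 is highest for Hdc.

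Mcpt8 and Prss34 encode serine proteases of basophil granules. Mcpt8 (ENSMUSG00000022157, chromosome 14, 56082166 to 56085273, minus strand, in GRCm38) was measured at 2.10, 4.38, 2.40, 1.54 and 1.99 CPM in WT replicates 1 to 5 and at 2.41, 1.03, 1.73, 2.41 and 1.24 CPM in Fpr2KO replicates 1 to 5. A single WT library, replicate 2, stood above the rest, and the other 4 WT libraries lay within the range of Fpr2KO. Its log2 fold change was -0.50 (SE 0.32; edgeR FDR = 0.633), and -0.19 without WT replicate 2. Prss34 (ENSMUSG00000056399, chromosome 17, 25298394 to 25300165, plus strand), known as mast cell protease 11, was the sparsest gene, with 74 reads in all WT libraries and 48 in all Fpr2KO libraries. Its values were 0.764, 1.40, 0.644, 0.628 and 0.795 CPM in WT and 0.325, 0.0606, 1.49, 0.765 and 0.148 CPM in Fpr2KO. The highest and the lowest of the 10 libraries were thus both Fpr2KO libraries, replicates 3 and 2. The log2 fold change of Prss34 was -0.61 (SE 0.57; edgeR FDR = 0.741), between -1.36 without Fpr2KO replicate 3 and -0.34 without Fpr2KO replicate 2. With limma voom it was -1.20 (FDR = 0.571). Prss34 passed the filter on low counts through the WT libraries, of which 5 reached the minimum, compared with 2 of Fpr2KO, so that counts over the 8 genes include a gene kept for its level in WT.

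Cpa3, a carboxypeptidase stored in the granules of mast cells and also expressed in basophils, had tightly grouped levels in Fpr2KO. Cpa3 (ENSMUSG00000001865, chromosome 3, 20215620 to 20242181, minus strand) was measured at 3.37, 2.92, 1.64, 2.80 and 4.09 CPM in WT and at 1.95, 2.43, 2.26, 2.46 and 2.22 CPM in Fpr2KO. All 5 Fpr2KO libraries lay below the WT median but above the lowest WT library, replicate 3. The log2 fold change was -0.39 (SE 0.22; edgeR FDR = 0.599), and it was -0.25 without WT replicate 5, the library with the highest Cpa3. The variance of the scaled Cpa3 counts was 4.71 times their mean in WT and 0.314 times in Fpr2KO, where 1 is the value that counting error alone gives.

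The 2 subunits of FceRI among the genes, Fcer1a and Ms4a2, were measured at similar depths. Fcer1a encodes the alpha chain, which binds immunoglobulin E. Fcer1a (ENSMUSG00000005339, chromosome 1, 173221284 to 173227214, minus strand) was measured at 1.27, 2.86, 1.58, 1.60 and 1.76 CPM in WT and at 1.43, 0.788, 0.892, 1.15 and 1.53 CPM in Fpr2KO. Of the Fpr2KO libraries, 3 lay below all WT libraries and 2, replicates 1 and 5, lay above the lowest one. The log2 fold change was -0.65 (SE 0.28, 95% interval -1.24 to -0.05, FDR = 0.473 by edgeR), and without WT replicate 2 it was -0.42. Ms4a2 encodes the beta chain, which amplifies the signal of the receptor. Ms4a2 (ENSMUSG00000024680, chromosome 19, 11615523 to 11623719, minus strand) was measured at 2.10, 3.13, 1.99, 1.48 and 3.01 CPM in WT and at 1.56, 1.94, 1.49, 1.75 and 1.78 CPM in Fpr2KO. All 5 Fpr2KO libraries lay below the WT median of 2.10 CPM, and none lay below the lowest WT library. The log2 fold change of Ms4a2 was -0.46 (SE 0.23; edgeR FDR = 0.539). In Fpr2KO the variance of its scaled counts was 0.333 times the mean, below the value that counting error alone gives. Of the sequence of Ms4a2, 4.03% (in words of 31 bases) also occurs in other genes, as does 3.65% of that of Cd200r3 and 0.487% of that of Hdc, so a small share of their reads could be split between genes.

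Gata2 and Cd200r3 had the smallest differences. Gata2 (ENSMUSG00000015053, chromosome 6, 88193891 to 88207032, plus strand), which is also expressed in stem cells and megakaryocytes, was measured at 5.60, 11.6, 9.54, 8.85 and 9.42 CPM in WT and at 6.83, 5.27, 7.14, 11.5 and 10.5 CPM in Fpr2KO. The groups covered almost the same range, with a log2 fold change of -0.12 (SE 0.22, 95% interval -0.60 to 0.35, FDR = 0.881 by edgeR). Without single libraries the value for Gata2 lay between -0.27 (without Fpr2KO replicate 4) and -0.01 (without Fpr2KO replicate 2), and it was -0.26 without WT replicate 1, -0.23 without Fpr2KO replicate 5, -0.07 without Fpr2KO replicate 1, -0.08 without Fpr2KO replicate 3 and -0.02 without WT replicate 2. Cd200r3 encodes an activating receptor of the CD200 receptor family found on basophils and mast cells. Cd200r3 (ENSMUSG00000036172, chromosome 16, 44943678 to 44981380, plus strand) was measured at 2.16, 5.94, 3.40, 1.77 and 1.82 CPM in WT and at 1.56, 2.36, 2.74, 2.68 and 3.01 CPM in Fpr2KO. Its WT median of 2.16 CPM lay below its Fpr2KO median of 2.68 CPM, although the WT mean was higher. The log2 fold change was -0.29 (SE 0.32; edgeR FDR = 0.793), and it turned to 0.12 without WT replicate 2. It was -0.15 with limma voom (FDR = 0.904) and -0.17 with the replicate block.

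Hdc (ENSMUSG00000027360, chromosome 2, 126593667 to 126619299, minus strand) was measured at 84.6, 62.1, 55.6, 40.6 and 49.2 CPM in WT and at 46.6, 31.95, 32.3, 16.8 and 26.98 CPM in Fpr2KO. Of the Fpr2KO libraries, 4 lay below all WT libraries, and replicate 1 lay above the lowest WT library, replicate 4. The 95% interval of the log2 fold change was -1.52 to -0.32, and by p-value Hdc stood at rank 297 of the 14669 genes. Leaving out single libraries gave values from -1.12 (without Fpr2KO replicate 1) to -0.76 (without WT replicate 1), with an FDR from 0.176 to 0.592 by edgeR. The estimate for Hdc thus stayed negative in each of these fits, and it passed the FDR in none of them. The share of all genes called in these fits was 0.0736, 0.0538, 0.0807, 0.175 and 0.342% without WT replicates 1 to 5, and 0.074, 0.174, 0.0536, 0.0946 and 0.0609% without Fpr2KO replicates 1 to 5.

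**Figure D2:**
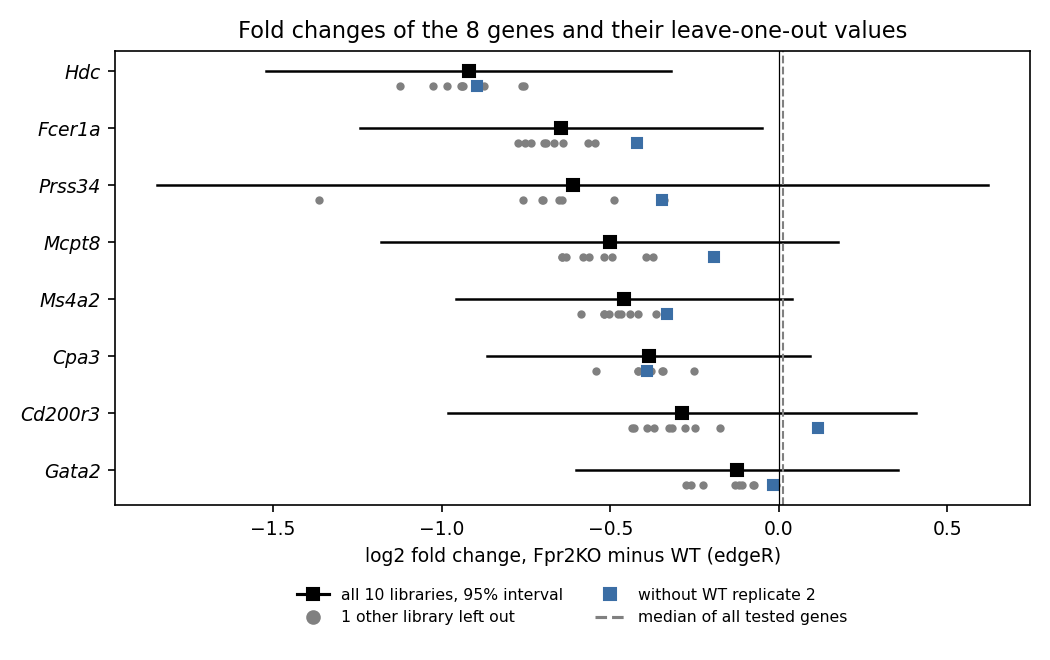
Log2 fold change of each gene, Fpr2KO minus WT, from edgeR with its 95% interval (black squares and lines) and, below each, the value without 1 library (grey circles) or without WT replicate 2 (blue squares). The dashed line is the median of all tested genes, 0.01, and Cd200r3 moves from -0.29 to 0.12 without WT replicate 2.

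The median log2 fold change of the 8 genes was -0.48, and -0.46 for the 7 without Hdc, beside 0.01 for all 14669 tested genes, of which 46.8% had lower estimates. Per kilobase of annotated exon and in WT, Hdc was at 9.14 ± 2.61 CPM and Mcpt8 followed at 2.49 ± 1.11, Cpa3 at 1.95 ± 0.591, Fcer1a at 1.82 ± 0.613 and Gata2 at 1.67 ± 0.403. Ms4a2 at 0.833 ± 0.251, Prss34 at 0.694 ± 0.262 and Cd200r3 at 0.504 ± 0.295 CPM per kilobase were the lowest (SD, n = 5). On this scale Hdc lay beyond the spread of the others, while neighbours among Mcpt8, Cpa3, Fcer1a and Gata2, and among Ms4a2, Prss34 and Cd200r3, did not differ beyond theirs. In Fpr2KO Hdc was again highest, at 4.84 ± 1.69 CPM per kilobase, and Mcpt8 came next at 1.76 ± 0.642.

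Hdc made up 65.8 to 83.0% of the summed CPM of the 8 genes in WT and 42.5 to 74.4% in Fpr2KO. The sum was 80.9 ± 17.2 CPM in WT, against 49.1 ± 8.53 CPM in Fpr2KO (SD, n = 5). Without Hdc, the other 7 genes summed to 17.4, 32.3, 21.2, 18.7 and 22.9 CPM in WT and to 16.1, 13.9, 17.7, 22.7 and 20.4 CPM in Fpr2KO. These sums overlapped over most of their range, and WT replicate 2 stood highest. The difference between the group means of the 7-gene sum was -4.31 CPM, and -1.86 CPM without WT replicate 2.

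Across the 10 libraries, after subtraction of the group means from log2 CPM, the genes moved together only in part. Over the 28 pairs, Pearson's r ranged from -0.66 for Gata2 with Hdc to 0.71 for Fcer1a with Gata2 (n = 10 libraries). The second highest was 0.63 for the proteases Mcpt8 and Prss34. None of the pairs had an adjusted p under 0.05 in an exact permutation test within groups, and 1 had an unadjusted p under 0.05. With the mean of the other 7 genes, r was 0.71 for Mcpt8, 0.61 for Fcer1a and 0.53 for Ms4a2, but -0.05 for Cpa3 and -0.19 for Hdc. All these values share libraries and, except for Hdc and Gata2, rest on at most 110 reads per library.

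Hdc is also expressed in neutrophils and their precursors, and its level was set beside that of neutrophil genes. The group-centred r of Hdc with the mean of 15 neutrophil markers was 0.86 (exact permutation p = 0.00792, adjusted p = 0.317 over the 40 relations of the 8 genes with 5 cell type lists, n = 10 libraries). Spearman's rho was 0.81 (exact permutation p = 0.014, adjusted p = 0.281), and r was 0.60 without the 2 libraries farthest from the median. Within WT r was 0.62 and within Fpr2KO 0.98. The value within Fpr2KO was not particular to neutrophil markers. There the r of Hdc was 0.99 with erythroid, 0.82 with eosinophil, 0.81 with platelet and megakaryocyte and 0.27 with classical monocyte markers. Within WT the r of Hdc with the first 3 of these lists was -0.28, -0.32 and 0.63, and over all 10 libraries 0.13, 0.13 and 0.69. After adjustment 0 of the 40 relations passed, and 3 had an unadjusted exact permutation p under 0.05. For Mcpt8, Fcer1a and Ms4a2 the r with the neutrophil list was 0.02, -0.00 and -0.20, and for Prss34, Cd200r3, Cpa3 and Gata2 it was -0.28, -0.30, -0.36 and -0.60. That of Cpa3 was among the 3 (exact permutation p = 0.029, adjusted p = 0.457). By rank it was not, as Spearman's rho of Cpa3 was -0.49 (exact permutation p = 0.157, adjusted p = 0.883).

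**Figure D3:**
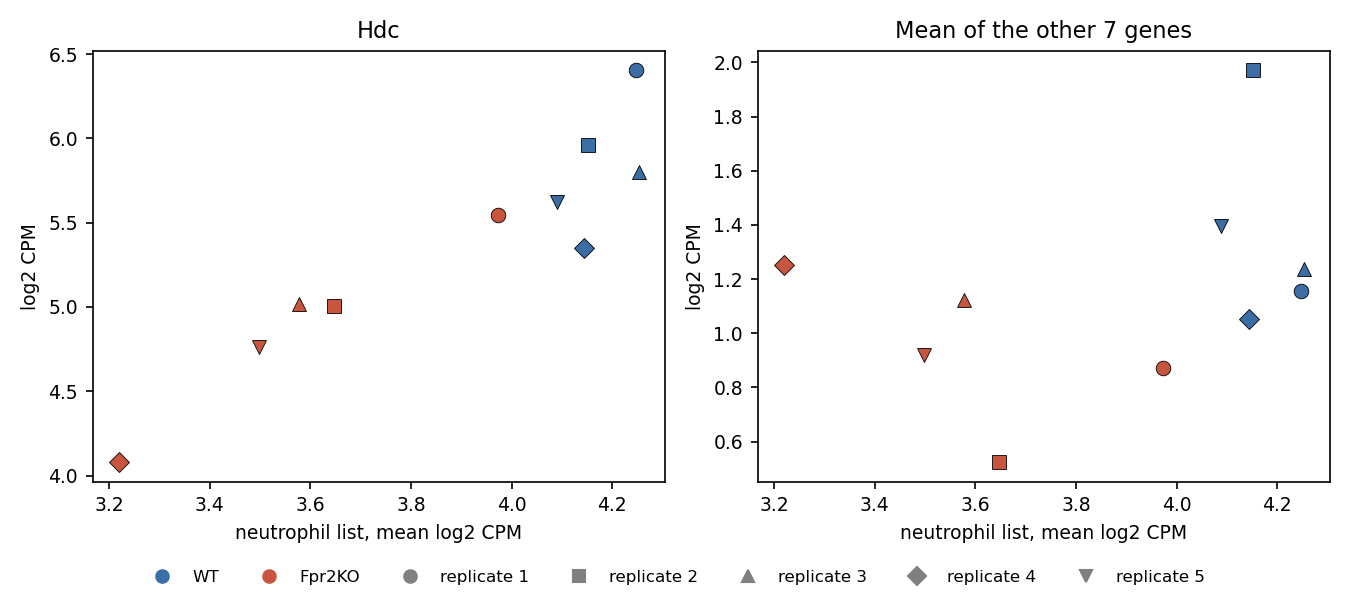
Log2 CPM of Hdc (left) and mean log2 CPM of the other 7 genes (right) against the mean log2 CPM of 15 neutrophil markers, for 5 WT and 5 Fpr2KO libraries (blue and red, 1 symbol shape per replicate number). Fpr2KO replicate 4 has the lowest value of the neutrophil list, 3.22, and of Hdc, while for the other 7 genes it is the highest Fpr2KO library.

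The neutrophil markers themselves had lower estimates in Fpr2KO. Their summed levels overlapped between the groups, whereas their mean log2 CPM did not, at 4.09 to 4.25 in WT and 3.22 to 3.97 in Fpr2KO. The sum was 948 to 1575 CPM in WT and 538 to 998 CPM in Fpr2KO, all 15 tested had lower estimates with a median log2 fold change of -0.65, and 0 passed the FDR by edgeR (10 had an unadjusted p under 0.05), while DESeq2 called 5. For the collagenase Mmp8 the log2 fold change was -0.74 (SE 0.16; edgeR FDR = 0.135). The part of neutrophil RNA in the Hdc difference was not tested. Classical monocyte markers had 8 of 8 lower estimates with a median of -0.72. By edgeR 0 passed (6 had an unadjusted p under 0.05), and DESeq2 called 3. They summed to 938 to 1459 CPM in WT and 673 to 926 CPM in Fpr2KO, without overlap. Their group-centred r with Hdc was -0.10, with -0.47 within WT and 0.27 within Fpr2KO. The part of monocyte RNA in the Hdc difference was not tested either. The 8 genes most like Hdc over the libraries were Clec4d (r = 0.97), Ets2 (0.97), Arg2 (0.97), Il1b (0.97), Ccr1 (0.96), Cytip (0.96), S100a8 (0.96) and Il1r2 (0.96), named after their values were seen by the rule used for the whole set. S100a8, a calcium-binding protein abundant in neutrophils, was itself in the neutrophil list. These r values with Hdc were not tested, and the highest of many genes ranked over 10 libraries can be high by chance.

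By the same measure, 7 of the 8 genes most like the mean of the 8 members were Habp4 (r = 0.87), Smyd1 (0.81), Gp9 (0.80), Pcsk4 (0.79), Cdh1 (0.79), Tgfbr3l (0.78) and Tmc3 (0.76), ranked among 11848 genes. The highest of so many values over 10 libraries can be this high by chance, and they were not tested. Gp9 encodes a subunit of the platelet receptor for von Willebrand factor. None of these genes passed the FDR by edgeR, and DESeq2 called Tmc3 (log2 fold change 0.96, FDR = 0.0278). Platelet and megakaryocyte markers, another source of Gata2 transcripts, summed to 120 to 164 CPM in WT and 101 to 143 CPM in Fpr2KO. Of 14 tested, 13 had lower estimates with a median log2 fold change of -0.57, and 0 passed by edgeR (6 had an unadjusted p under 0.05), while DESeq2 called 2. Their r with Gata2 was -0.39 and with Hdc 0.69. The part of platelet RNA in these differences was not tested.

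Mast cells and basophils share most of the 8 genes, so proteases restricted to mast cells were read beside them. The 9 mast cell chymase and tryptase genes listed had 24 to 63 reads per library in all, and 466 over the 10 libraries. Mcpt8 and Prss34 together had 18 to 107 reads per library and 491 in all. Cma2 and Mcpt9 had 0 reads in each library, and Tpsab1 and Tpsg1, both tryptases, had 8 reads each. The connective tissue mast cell chymases Mcpt4 and Cma1 were measured at 1.02 ± 0.226 and 0.520 ± 0.212 CPM in WT and at 0.884 ± 0.244 and 0.488 ± 0.283 CPM in Fpr2KO (SD, n = 5). Their log2 fold changes were -0.19 (FDR = 0.843) and -0.10 (FDR = 0.961 by edgeR). Of the 14 listed mast cell genes 5 were tested, with 4 lower and 1 higher estimate, a median of -0.18, and 0 passing by edgeR or DESeq2 (0 at an unadjusted p under 0.05 by edgeR). The higher one was Rgs13, a regulator of G protein signalling (log2 fold change 0.44, SE 0.40; edgeR FDR = 0.731). Only 1 Fpr2KO library, at 2.06 CPM, lay above the highest WT value of Rgs13, 0.937 CPM. The tryptase Tpsb2 had 51 reads in WT and 38 in Fpr2KO, and the mucosal mast cell protease Mcpt1 had 49 and 19, both too few to be tested. Of the sequence of Mcpt4, 12.2% (counted in 31-base words) also occurs in other genes, compared with 0% for Mcpt8 and Prss34. Both sets of proteases were thus present at low counts in every library, and RNA of the 2 cell types cannot be told apart in the genes that they share.

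**Figure D4:**
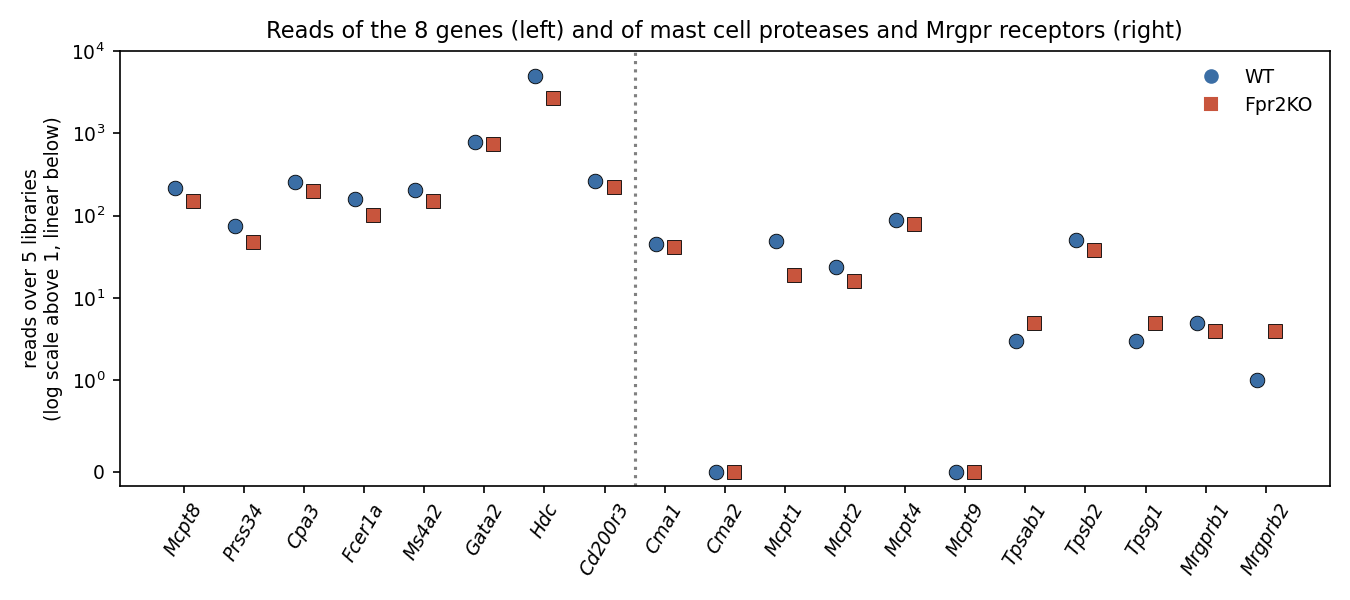
Reads summed over 5 libraries of each group for the 8 genes (left of the dotted line) and for 9 mast cell proteases and the receptors Mrgprb1 and Mrgprb2 (right), on an axis that is logarithmic above 1 and linear below. Hdc has 5006 reads in WT, Cma2 and Mcpt9 have 0, and the remaining mast cell genes have fewer than 100 in each group.

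Other genes of basophils and their cytokine receptors had mostly lower estimates too. Of 16 listed, 15 were tested, 12 had lower estimates with a median of -0.33, and 0 passed by edgeR (3 had an unadjusted p under 0.05), while DESeq2 called 1, Osm. Osm, a cytokine of many myeloid cells, had a log2 fold change of -0.55 (SE 0.13; edgeR FDR = 0.165). Hgf, a growth factor, had one of -0.49 (FDR = 0.413 by edgeR), and Il1rl1, the receptor for interleukin 33, one of -0.55 (FDR = 0.448 by edgeR). Il4, the signature cytokine of basophils, was measured at 3.25, 4.27, 2.75, 2.00 and 1.19 CPM in WT and at 0.976, 2.61, 1.73, 1.53 and 2.87 CPM in Fpr2KO. The Il4 values of the groups overlapped (log2 fold change -0.46, SE 0.34; edgeR FDR = 0.678), and Il13 had 7 reads in all. The interleukin 3 receptor genes Il3ra and Csf2rb, at 20.2 ± 3.08 and 207.3 ± 12.6 CPM in WT, had log2 fold changes of -0.03 and -0.05. Kit, the stem cell factor receptor of mast cells and progenitors, was measured at 104.4 ± 15.1 CPM in WT, against 92.0 ± 10.1 CPM in Fpr2KO (log2 fold change -0.18, SE 0.10; edgeR FDR = 0.596).

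Genes that carry the signal of FceRI are shared with macrophages and B cells. All 20 listed were tested, 14 had lower estimates with a median log2 fold change of -0.03, and 0 passed by edgeR or DESeq2. At an unadjusted p under 0.05 there was 1, the adaptor Gab2 (log2 fold change -0.18, SE 0.07; edgeR FDR = 0.438). Fcer1g, the gamma chain that FceRI shares with other Fc receptors, was measured at 273 to 410 CPM in WT and 257 to 330 CPM in Fpr2KO. Lcp2 and Lyn, an adaptor and a kinase of the same pathway, had log2 fold changes of -0.24 and -0.15 (FDR = 0.516 and 0.535 by edgeR). Lat2, another adaptor, had one of 0.22 (FDR = 0.619 by edgeR).

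Among the other genes of histamine handling, 5 of 9 were tested, 4 had lower estimates and 0 passed by edgeR or DESeq2 (1 had an unadjusted p under 0.05 by edgeR). Hnmt, which inactivates histamine by methylation, was measured at 2.98 ± 0.720 CPM in WT, against 1.99 ± 0.414 CPM in Fpr2KO (SD, n = 5), with a log2 difference of -0.58 (SE 0.22; edgeR FDR = 0.415). Slc18a2, the transporter that loads histamine into granules, was measured at 1.71 ± 0.269 and 1.26 ± 0.222 CPM, a log2 fold change of -0.44 (SE 0.22; edgeR FDR = 0.535). Slc18a2 is also counted in the lists of mast cell genes and of other basophil genes, so the counts of these lists are not separate. Its Fpr2KO values overlapped those of WT, the highest of 1.59 CPM lying above the lowest WT value of 1.41 CPM. The one higher estimate was that of Slc22a3, a transporter of organic cations, at 0.38 (SE 0.41; edgeR FDR = 0.780). The histamine receptor genes Hrh1 and Hrh2 had log2 fold changes of -0.08 and -0.15, and Hrh3 had 0 reads. Of the CD200 receptor family, Cd200r1 and Cd200r4 had log2 fold changes of 0.13 and -0.04 and Cd200r2 had 6 reads, and the ligand Cd200 had one of -0.06.

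Partners of Gata2 in blood cell transcription had estimates in both directions. Of 17 tested, 10 had higher and 7 lower estimates, with a median of 0.02, and 0 passed by edgeR (4 higher and 1 lower at an unadjusted p under 0.05), while DESeq2 called 2. Zfpm1, a cofactor of GATA factors, was measured at 15.2 ± 3.08 CPM in WT, against 25.5 ± 1.59 CPM in Fpr2KO (SD, n = 5), with a log2 difference of 0.75 (SE 0.13; edgeR FDR = 0.0565 and 0.000104 by DESeq2). Gata1 was measured at 4.33 ± 1.05 and 7.30 ± 1.23 CPM (log2 fold change 0.75, SE 0.18; edgeR FDR = 0.184 and 0.0214 by DESeq2). Tal1, a transcription factor of stem and erythroid cells, had a log2 fold change of 1.27 (SE 0.39; edgeR FDR = 0.342), and Cebpa, a factor of myeloid cells, one of -0.39 (SE 0.15; edgeR FDR = 0.443). For Zfpm1 and Gata1, all 5 Fpr2KO libraries lay above all WT libraries, which held for 0.825% of all genes in the higher direction. Gata1 and Zfpm1 are also expressed in erythroid cells, whose 11 markers summed to 1612 to 6435 CPM in WT and 4457 to 10670 CPM in Fpr2KO, and the part of erythroid RNA in these values was not tested. All 11 erythroid markers were tested and had higher estimates, with a median log2 fold change of 1.48. By edgeR 0 of them passed (11 had an unadjusted p under 0.05), and DESeq2 called 1. Eosinophil markers, of another granulocyte with which basophils share receptors, had a median log2 fold change of -0.00 over 10 tested genes, 5 lower and 5 higher, and 0 passed by edgeR or DESeq2 (0 at an unadjusted p under 0.05 by edgeR). They were close in sum between the groups, at 457 to 591 CPM in WT and 453 to 566 CPM in Fpr2KO. B cell markers had 7 of 7 higher estimates with a median of 0.24 (3 at an unadjusted p under 0.05 by edgeR). T cell markers had 8 higher and 1 lower, with a median of 0.27 (0 at that p). Red pulp macrophage markers had 9 higher and 5 lower, with a median of 0.06 (1 higher at that p). Stem and progenitor markers had 3 higher and 4 lower, with a median of -0.18 (1 lower at that p). By edgeR 0 genes of these lists passed, and DESeq2 called 1 red pulp macrophage marker.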

How the data were processed

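The deposited values are raw read counts per Ensembl gene for 10 libraries, which the authors did not normalise. Per the submitters' processing notes, HTSeq 0.10.0 and FastQC 0.10.1 were used with the builds mm10 and GRCm38. The sources used here give no aligner, strand setting or annotation release, so in general reads of overlapping and antisense genes could not be told apart. For the 8 genes, the only overlapping genes annotated in GENCODE M21 were the microRNA genes Mir6949 (with Mcpt8) and Mir7007 (with Cpa3). Each lies on the same strand as the gene it overlaps and had 0 reads. The 8 genes and all gene lists were chosen with earlier results of these data known. Symbols and coordinates are from GENCODE M21, which matched 52133 of 55414 identifiers, and 1 of 199 listed symbols was not found. Promoters are from RefSeq (GRCm38.p6).

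In R 4.3.3, edgeR 4.0.16 was run on all genes kept by filterByExpr (at least 10 reads at the median depth, or 0.571 CPM, in 5 libraries), with TMM scaling and a robust quasi-likelihood test of Fpr2KO against WT, two-sided, with no covariate. P-values were adjusted by Benjamini-Hochberg over 14669 genes, with a threshold of 0.05. The SE is the log2 fold change divided by the square root of F. CPM use TMM-scaled library sizes, and log2 CPM a prior count of 2. The fit was tested on simulated data. DESeq2 1.42.0, limma 3.58.1 and the other alternatives are in the closing section. No list was tested as a set. Correlations used group-centred log2 CPM, and their exact permutation tests over 14400 orders within groups were added after seeing the data. Named genes were the 8, the 4 with the smallest p-value (or all tested, where fewer) in each list of mast cell, basophil, FceRI, Gata2, histamine and CD200 receptor genes, Fcer1g, Kit, Il4, Cma1, Mcpt4 and Tpsb2, and the 8 genes with the highest r with the mean of the set, of which 1 is not reported here. The lists of other cell types are given as counts, with Mmp8 as the neutrophil gene of smallest p-value. Genes outside the rule (Hrh1, Hrh3, Mrgprb1, Mrgprb2, Mcpt1, Mcpt9, Cma2, Tpsab1, Tpsg1, Il13, Il3ra, Csf2rb and Cd200r2) were named after their values were seen. Library totals were 15865820 to 19060188 counts. Each of the 20 pairs of libraries within a group differed beyond sampling noise (chi-square divided by its degrees of freedom, 11.2 to 60.9).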

Additional observations from a re-analysis of the deposited data

Results flagged for a closer look

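Within-group spread was checked in 62 groups of 5 libraries, for the 8 genes, their sums and the genes named by likeness or with values in every library, and in 3 of them 1 library lay far from the others. Chance gives about 1 in 20 such groups. In WT, Prss34 was 1.40 CPM in replicate 2, and the next highest library had 0.795 CPM. Fpr2 was 33.6 CPM in WT replicate 3, next to 21.7 CPM. In Fpr2KO, Tmc3 was 3.66 CPM in replicate 4, next to 2.61 CPM.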

How the results depend on the processing

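The 8 genes kept negative estimates in 135 of 136 values under 17 alternatives, and the exception was Cd200r3 (-0.43 to 0.12 without single libraries, the latter without WT replicate 2). By edgeR 0 of the 8 passed the FDR, and leaving out single libraries gave 0 to 0. DESeq2 called 1 and the replicate block 1, in both cases Hdc (FDR = 0.0145 by DESeq2, and log2 fold change -0.95 with FDR = 0.00149 with the block in edgeR). With the replicate block, 1 of the 8 had an unadjusted p under 0.05, compared with 2, and without single libraries 1 to 3 (1 without WT replicate 2, Fpr2KO replicate 2 or Fpr2KO replicate 4, and 3 without WT replicate 3 or 4). The labels do not say whether the numbers in the titles pair the libraries. Correlations of the deviations of same-numbered libraries were -0.10, 0.29, -0.10, 0.25 and -0.24. Of the 5 WT libraries, 2 correlated best with their own number. These values come from single libraries and cannot decide whether the libraries are paired. Over all genes, 10 passed, compared with 62 with no filter, 185 with DESeq2, 64 with the replicate block and 8 to 51 without single libraries (51 without WT replicate 5, and 26 without WT replicate 4 or Fpr2KO replicate 2). The median of the 8 genes ranged from -0.61 to -0.34 without single libraries, and their summed difference from -37.2 to -26.5 CPM. The cause of these changes was not tested. Depth limits Prss34, with 122 reads in all.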
